A study of Mus musculus with 4 samples.

Results

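Slits, netrins, repulsive guidance molecules (RGMs) and ephrins are cues that steer growing axons and migrating cells, and Robo, DCC-family, Unc5 and Eph proteins are their receptors. The genes described here are the 32 rows, of 24689 in the deposited expression table, whose symbols name a Robo, Slit, Srgap, netrin, Unc5, Eph or ephrin gene, or Neo1, Rgma, Rgmb or Draxin. They were chosen by symbol, with earlier results of these data known. Robo1, Robo4 and Dcc were not analysed here.

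Expression was measured by RNA sequencing in HT-22, an immortalized mouse cell line of hippocampal origin, in 2 libraries of cells with induced Pja2 (titled Pja2-pb) and 2 libraries of control cells. Pja2 encodes a RING-type ubiquitin ligase. The controls are labelled uninduced in one field and WT in another, and all 4 samples carry the same passage range, 21 to 24. How Pja2 was induced, and whether both groups derive from 1 clone, is not stated in the sources used here, so an effect of induction and a difference between lines cannot be told apart. Nothing says that replicates were separate cultures, so every p-value measures the spread between these libraries only.

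Libraries held 30080376 and 35262653 reads in genes in induced cells and 25787452 and 31010351 in controls. Values are normalized reads, the authors' scaled read counts, and means are shown with the SD over 2 libraries. Pja2 itself averaged 54537 ± 415 normalized reads in induced cells and 6024 ± 202 in control cells. Of 10 neuronal marker genes fixed for a check of the labelled cell type, 5 had a row, and Tubb3 and Dlg4 were the 2 above 1 CPM (a gene's reads scaled to a fixed library total). Syt1, Slc17a7 and Nefl, a synaptic vesicle protein, a glutamate transporter and a neurofilament gene, averaged at most 4.40 normalized reads in either group. The collagen gene Col1a2 averaged 172100 in induced and 180590 in control cells, so the label of a hippocampal neuron rests on few of its defining markers here. In the other lists the tested genes that passed the threshold were Des and Acta2 of 4 mural genes, which rose, and Dcn and Col3a1 of 7 fibroblast genes, which fell. None of 3 astrocyte, 1 oligodendrocyte, 2 microglial and 1 endothelial gene passed, and 0 of the neural progenitor genes was tested. Summed over the list, mural markers stood at 10008 and 11370 normalized reads in induced cells and 12046 and 10119 in controls. Fibroblast markers summed to 357840 and 353860 in induced cells and 413720 and 368270 in controls. The part of these shifts in the values of the guidance genes was not tested.

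Slit proteins are secreted ligands that bind Robo receptors through leucine-rich repeats, and in the brain they repel axons and migrating neurons. Robo receptors carry no kinase domain and signal through adaptors, among them the Srgap proteins. Netrin 1 can attract or repel an axon depending on whether it meets DCC-family receptors alone or together with an Unc5 receptor. Ephs are receptor tyrosine kinases whose ligands, the ephrins, are themselves bound to the membrane, by a lipid anchor in class A and by a transmembrane segment in class B.

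The receptor gene Robo2 was the 1 guidance gene that passed the test. It had 128 and 160 normalized reads in the induced libraries, counted from 118 and 172 reads, and 0 reads in both control libraries. The groups did not overlap, and the gene was at least 41.5-fold higher in induced cells, a lower bound against a floor of 3 reads per control library that covers counting error only. In limma's fit over 13276 genes its log2 fold change was 7.17 (SE 0.50, adjusted p = 0.00523), a value that depends on the pseudocount of 1. Of all tested genes 2 had no read in either control library, and the other was Epo, the erythropoietin gene, named after its values were seen, which averaged 66.8 ± 94.4 in induced cells. Robo2 passed the minimum of 1 CPM through the induced libraries alone, with a mean of 2.20 CPM over the 4 libraries. With no filter on low values its adjusted p was 0.0129, and over all refits in which it was tested, which include each fit that left out 1 library, it ranged from 0.00337 to 0.0198. Its exons overlap those of no other gene in the GENCODE M21 annotation (GRCm38).

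RefSeq (GRCm38.p6) places 3 start sites in Robo2, which lies on the minus strand of chromosome 16. They are shown because the gene's reads were present in 1 group alone, and reads per gene do not tell which start was used. Each window holds 250 bases before and 50 after the start, with CG dinucleotides in capitals. The start farthest upstream has the window chr16:75447244-75447543, the middle one chr16:75092721-75093020 and the one farthest downstream chr16:74411776-74412075.
Robo2 upstream start: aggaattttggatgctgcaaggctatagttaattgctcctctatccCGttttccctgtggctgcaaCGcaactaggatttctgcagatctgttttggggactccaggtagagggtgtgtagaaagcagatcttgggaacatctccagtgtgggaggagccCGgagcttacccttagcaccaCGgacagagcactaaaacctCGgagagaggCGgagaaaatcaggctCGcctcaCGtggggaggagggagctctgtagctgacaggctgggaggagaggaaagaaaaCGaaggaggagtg
Robo2 middle start: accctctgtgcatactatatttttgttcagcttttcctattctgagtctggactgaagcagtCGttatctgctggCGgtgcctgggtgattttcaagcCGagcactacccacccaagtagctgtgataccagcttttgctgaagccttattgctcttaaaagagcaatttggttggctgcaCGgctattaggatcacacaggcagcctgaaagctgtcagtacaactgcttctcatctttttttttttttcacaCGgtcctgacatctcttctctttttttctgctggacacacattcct
Robo2 downstream start: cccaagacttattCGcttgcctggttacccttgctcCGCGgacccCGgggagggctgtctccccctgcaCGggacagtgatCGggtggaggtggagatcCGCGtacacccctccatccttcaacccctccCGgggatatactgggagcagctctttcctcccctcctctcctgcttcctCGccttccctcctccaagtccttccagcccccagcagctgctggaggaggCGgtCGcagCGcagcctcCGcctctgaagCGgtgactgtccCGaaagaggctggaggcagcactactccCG
The windows hold 9, 5 and 17 CG dinucleotides in the order printed, against a median of 7 over 32851 mouse promoter windows and of 21 over the 34 windows of the 28 guidance genes that matched. Searched on both strands, none of the 3 holds TATAAA, found in 13.6% of all windows, or CCAAT, found in 37.4%. None holds GGGCGG, found in 35.7%, or the palindrome TGACGTCA, found in 1.79%. The upstream window holds the palindrome CACGTG, as do 7.15% of all windows. Such matches describe the letters of these windows only.

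**Figure D1:**
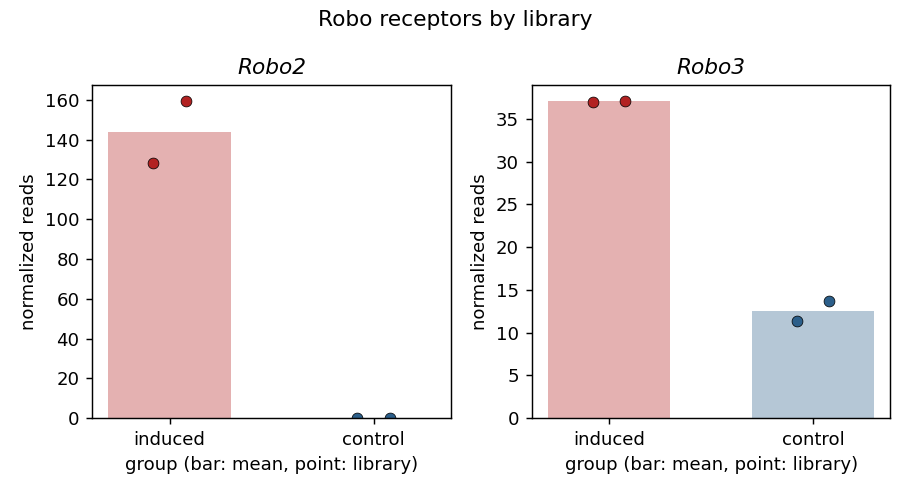
Normalized reads of Robo2 and Robo3 on linear axes, with bars for the mean of each group and points for the 2 libraries. Robo2 lies at 128 and 160 in induced cells and at 0 in both controls, and Robo3 at 37.0 and 37.1 in induced cells against 11.3 and 13.7 in controls.

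Robo3, a divergent Robo receptor known from commissural axons that cross the midline, had 37.0 and 37.1 normalized reads in induced cells and 11.3 and 13.7 in control cells. Both induced libraries lay above both controls. These values rest on 74 reads in induced and 22 in control cells, a ratio of 2.94 after scaling with a 95% exact binomial interval of 1.80 to 4.97 that covers counting error only. At 0.758 CPM the gene fell short of the minimum and was not tested. In the fit without that filter its log2 fold change was 1.50 (adjusted p = 0.176), short of the threshold, in a setting where 0.644% of 24689 genes passed in either direction and 0.405% were higher. Its RefSeq window, chr9:37433126-37433425 on the minus strand, is printed beside those of Robo2 as the other measured member of the family.
Robo3 start: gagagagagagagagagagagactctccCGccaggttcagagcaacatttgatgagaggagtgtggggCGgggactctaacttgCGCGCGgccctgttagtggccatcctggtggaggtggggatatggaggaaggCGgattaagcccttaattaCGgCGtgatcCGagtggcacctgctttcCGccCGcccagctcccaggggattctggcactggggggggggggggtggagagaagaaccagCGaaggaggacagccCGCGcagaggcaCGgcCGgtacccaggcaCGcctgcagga
It holds 17 CG dinucleotides and GGGCGG, and none of the other motifs searched.

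Many genes on the chromosome of Robo2 were also higher in induced cells. Chromosome 16 had 403 tested genes, of which 85 rose and 6 fell, with a median log2 fold change of 0.31, against 191 rises and 172 falls among 12849 genes elsewhere and a median of -0.00. At coordinates below Robo2, 84 of 325 tested genes rose, 4 fell and the median was 0.37. At coordinates above it, 0 of 77 rose, 2 fell and the median was 0.06. This division at Robo2 was made after the values were seen and carries no test. Gbe1, a glycogen branching enzyme gene and the nearest tested gene below Robo2 at 3.32 Mb, averaged 2232 ± 183 normalized reads in induced cells and 1251 ± 27.5 in control cells (log2 fold change 0.83, adjusted p = 0.0120). Hspa13, the nearest above it at 1.33 Mb, averaged 2341 ± 76.8 in induced and 2037 ± 109 in control cells (log2 fold change 0.20, adjusted p = 0.236). These genes were named for their place next to Robo2. The stretch below Robo2 was not uniform. Most of its 84 rises lay from Pcyt1a to Gbe1, the part nearer Robo2, where most log2 fold changes exceeded 0.37. In the part farther away, rises were sparser and most log2 fold changes were smaller. Pcyt1a was picked as the border after the values were seen, and this split carries no test. Within the nearer part Chmp2b and Vgll3, about 8 Mb from Robo2, stood at 0.01 and -0.02 on the log2 scale. Among the tested guidance genes Ephb3 also lies on chromosome 16, in the part farther from Robo2. Its log2 fold change was 0.13, beside a median of 0.31 over the 93 tested genes within 5 Mb of it. Of these 93 genes, 15 rose and 3 fell. Whether the shift of the chromosome bears on Robo2 was not tested.

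**Figure D2:**
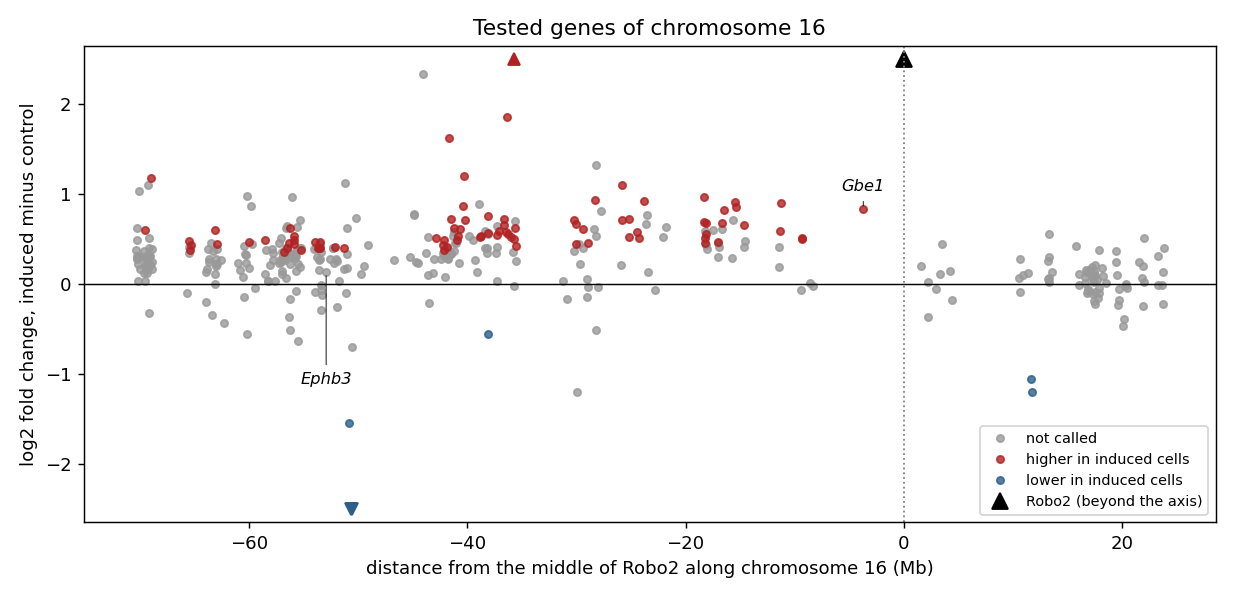
Log2 fold change (induced minus control) of each tested gene of chromosome 16 against its distance in Mb from the middle of Robo2, coloured by limma's call at an adjusted p under 0.05. Triangles mark genes beyond the axis. Red symbols, points and triangles together, number 84 to the left of Robo2 and do not occur to its right.

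Of the Slit ligands, Slit2 was the 1 expressed above 1 CPM. It had 4856 and 3451 normalized reads in the induced libraries and 4143 and 2889 in the controls, so the groups overlapped and each group's first library was the higher. The log2 fold change of 0.24 had a 95% interval of -0.30 to 0.78 (adjusted p = 0.596), and leaving out 1 library moved it between -0.02 and 0.50. Slit1 had 8.70 and 5.56 normalized reads in induced and 12.6 and 8.43 in control cells. Slit3 was found by 3 reads in induced and 2 in control cells. At this depth no difference was detectable in either.

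None of the 3 Srgap genes passed the test. Srgap1 had 206 and 233 normalized reads in induced cells and 341 and 373 in control cells, and its groups did not overlap. Its log2 fold change of -0.70 (SE 0.14, 95% interval -1.05 to -0.35) did not pass after adjustment (adjusted p = 0.0638), and the adjusted p over the refits ran from 0.0622 to 0.232. Srgap3 had 256 and 237 in induced cells and 373 and 320 in control cells, again with no overlap (log2 fold change -0.49, SE 0.14, adjusted p = 0.152). Srgap2, the family member known to promote membrane protrusion in cortical neurons, was by far the most abundant, with 4727 and 4730 normalized reads in induced and 4946 and 4215 in control cells. A log2 fold change of 0.05 came with a 95% interval of -0.17 to 0.27. Exons of Srgap1 and Srgap3 each overlap another gene model, as do those of Ephb4, Rgma and Ephb1. The library kit does not mark strand, so reads within the shared stretches of such pairs cannot be told apart.

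The netrin and RGM pathway was read mainly through its receptors. Neo1, the DCC-family receptor neogenin, which binds RGMs and netrins, had 6872 and 7633 normalized reads in induced cells and 7106 and 6972 in controls. The groups overlapped, and the log2 fold change of 0.04 had a 95% interval of -0.14 to 0.22 (adjusted p = 0.803). Unc5b, a netrin receptor of the repulsive class that is also known from blood vessels, had 3119 and 2867 normalized reads in induced cells and 2626 and 2151 in control cells. Both induced libraries lay above both controls, yet the log2 fold change of 0.33 (SE 0.11, 95% interval 0.06 to 0.61) did not pass (adjusted p = 0.196). Over the refits its adjusted p ran from 0.0821 to 0.485.

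Netrin 1, the founding secreted netrin, is encoded by Ntn1, which had 208 and 191 normalized reads in induced cells and 358 and 291 in control cells. Both induced libraries lay below both controls. The log2 fold change was -0.69 (SE 0.16, 95% interval -1.09 to -0.30) and missed the threshold (adjusted p = 0.0917, 0.0908 to 0.280 over the refits). Ntn5 had 0 and 9.27 normalized reads in induced cells and 18.9 and 9.48 in controls, so both induced libraries lay below both controls, though 1 of each group nearly met. From 10 and 24 reads the scaled ratio was 0.364 (95% exact binomial interval 0.155 to 0.789, counting error only). It was not tested, its adjusted p without the filter was 0.528, and its exons overlap those of Sec1. Draxin, a secreted netrin and DCC antagonist, had 5.44 and 11.1 in induced cells against 6.29 and 14.7 in controls. Of the RGM ligands, which are tethered to the membrane and bind neogenin, Rgma had 1303 and 1523 normalized reads in induced cells and 1739 and 1555 in controls. These groups did not overlap, and the log2 fold change was -0.22 (adjusted p = 0.332). Rgmb averaged 1149 ± 135 in induced and 1110 ± 147 in control cells (log2 fold change 0.05, adjusted p = 0.866).

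Eph receptors were expressed as a broad set, led by class B. Ephb4, a receptor best known for marking veins, had 4170 and 4245 normalized reads in induced cells and 4400 and 4186 in controls, with a log2 fold change of -0.03 and a 95% interval of -0.19 to 0.13. Ephb3 had 2155 and 2241 in induced and 2130 and 1884 in control cells (0.13, adjusted p = 0.458). Ephb2 averaged 1550 ± 50.3 in induced and 1498 ± 76.9 in control cells, with a log2 fold change of 0.05 (adjusted p = 0.782). The kinase-inactive Ephb6 averaged 698 ± 0.498 in induced and 732 ± 15.5 in control cells, with -0.07 (adjusted p = 0.731). Summed over the 5 EphB rows, each induced library held 8540 and 8769 normalized reads and each control library 8694 and 8365, and these ranges overlapped.

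Among class A receptors Epha4, which binds ephrins of both classes, had 545 and 584 normalized reads in induced cells and 428 and 432 in control cells. The groups did not overlap. Its log2 fold change of 0.39 (SE 0.11, 95% interval 0.13 to 0.65) was the highest of the 23 tested guidance genes after Robo2 and did not pass (adjusted p = 0.131, 0.123 to 0.448 over the refits). Epha2, a receptor common in epithelial and tumour cells, had 1158 and 1219 in induced and 1229 and 1234 in control cells (log2 fold change -0.05, 95% interval -0.25 to 0.14). Epha8 had 5.44 and 9.27 normalized reads in induced cells and 15.1 and 23.2 in controls, from 15 and 34 reads, a scaled ratio of 0.385 (95% exact binomial interval 0.195 to 0.727, counting error only). It was not tested, and in the fit without the filter its adjusted p was 0.377. Epha1 averaged 6.43 ± 1.40 in induced and 7.03 ± 2.50 in control cells, with exons that overlap those of Zyx, and Ephb1 was found by 2 reads in 1 induced library.

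Ephrins of both classes were present in both groups. Efnb2, the transmembrane ligand of Ephb4 in vessel walls, had 1767 and 1800 normalized reads in induced cells and 2016 and 1773 in controls (log2 fold change -0.08, 95% interval -0.30 to 0.13). Efnb1 averaged 183 ± 2.84 in induced and 205 ± 25.4 in control cells, and Efnb3 72.3 ± 3.87 in induced and 62.8 ± 12.4 in control cells, with log2 fold changes of -0.16 and 0.21 that did not pass. Efna1 had 798 and 900 normalized reads in induced cells and 644 and 790 in control cells, with both induced libraries above both controls and a log2 fold change of 0.25 (adjusted p = 0.373). Efna5, a ligand known from topographic maps of the visual system, had 503 and 439 in induced cells and 570 and 586 in controls, the reverse arrangement, with -0.30 (adjusted p = 0.251). Efna3 averaged 308 ± 24.9 in induced and 316 ± 27.7 in control cells, and Efna4 434 ± 9.10 in induced and 405 ± 57.1 in control cells, each with exons overlapped by an antisense gene. Efna2 was found by 3 reads in 1 control library.

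**Figure D3:**
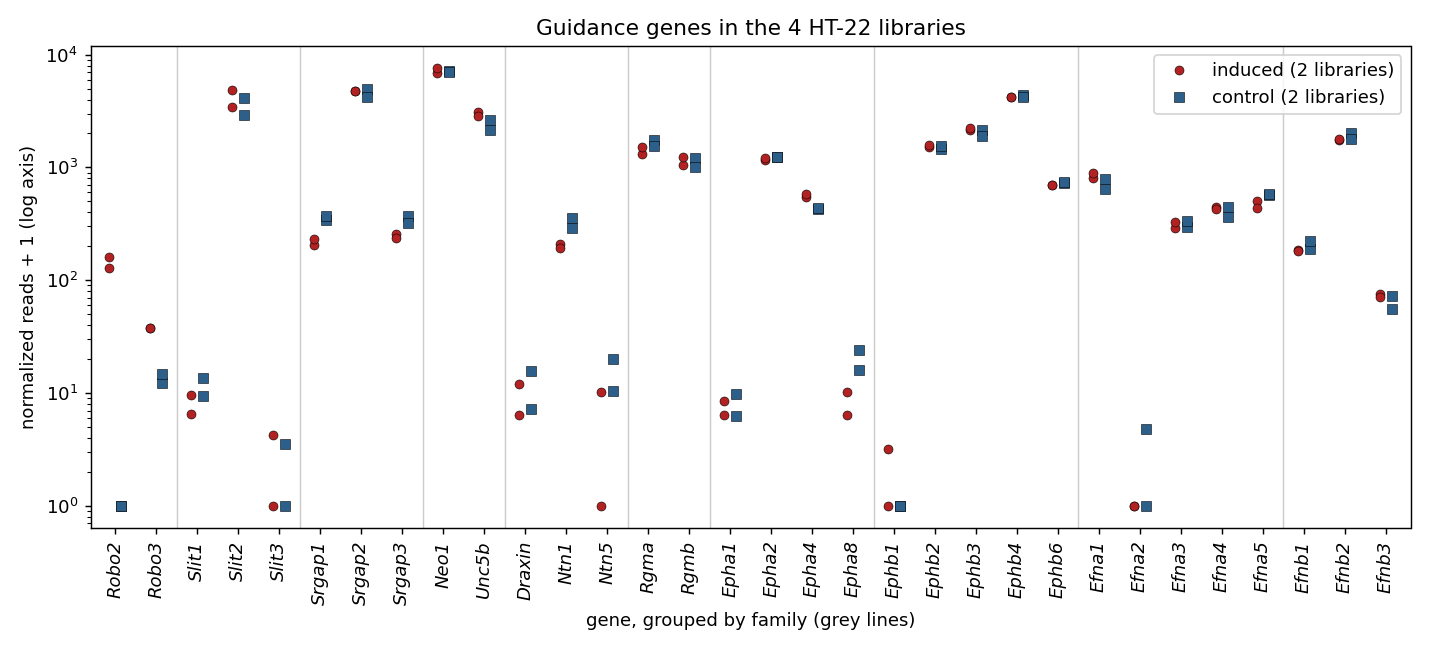
Normalized reads plus 1 on a log axis for the 32 guidance genes, grouped by family, with a point for each of the 2 induced and 2 control libraries. Points of both groups lie close together for most genes, and Robo2 stands at 128 and 160 in induced cells with both controls at 0.

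Across the 32 genes, 23 passed the minimum of 1 CPM and were tested, and 9 did not: Robo3, Slit1, Slit3, Ntn5, Draxin, Epha1, Epha8, Ephb1 and Efna2. Of the 23, 1 was called higher and 0 lower at an adjusted p under 0.05, against 3.42% of all 13276 tested genes called in either direction. With 0 control reads Robo2 could pass the minimum only by being higher in induced cells. Its call is therefore read for itself and not as a share of the set. Passing fixed the direction and not the call, since Epo, also at 0 in both controls, was not called by limma (adjusted p = 0.455). In limma's fit 7 of the 23, Robo2 among them, had an unadjusted p under 0.05, against 19.1% of all tested genes. In 13 of the 23 both induced libraries lay on the same side of both controls, an arrangement that 51.3% of all tested genes showed. They were above in 5 and below in 8, against 26.2% and 25.1% of all tested genes. The median log2 fold change was 0.04 over the 23 and 0.00 over all tested genes. The median of the 23 was the same 0.04 with Robo2 set at its lower bound of 5.38. This had to hold, since Robo2 is the highest of them at either value. Apart from Robo2, log2 fold changes ran from -0.70 for Srgap1 to 0.39 for Epha4. Of these 22 genes 20 lay within 0.5 of 0, as did 12037 of all 13276 tested genes.

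**Figure D4:**
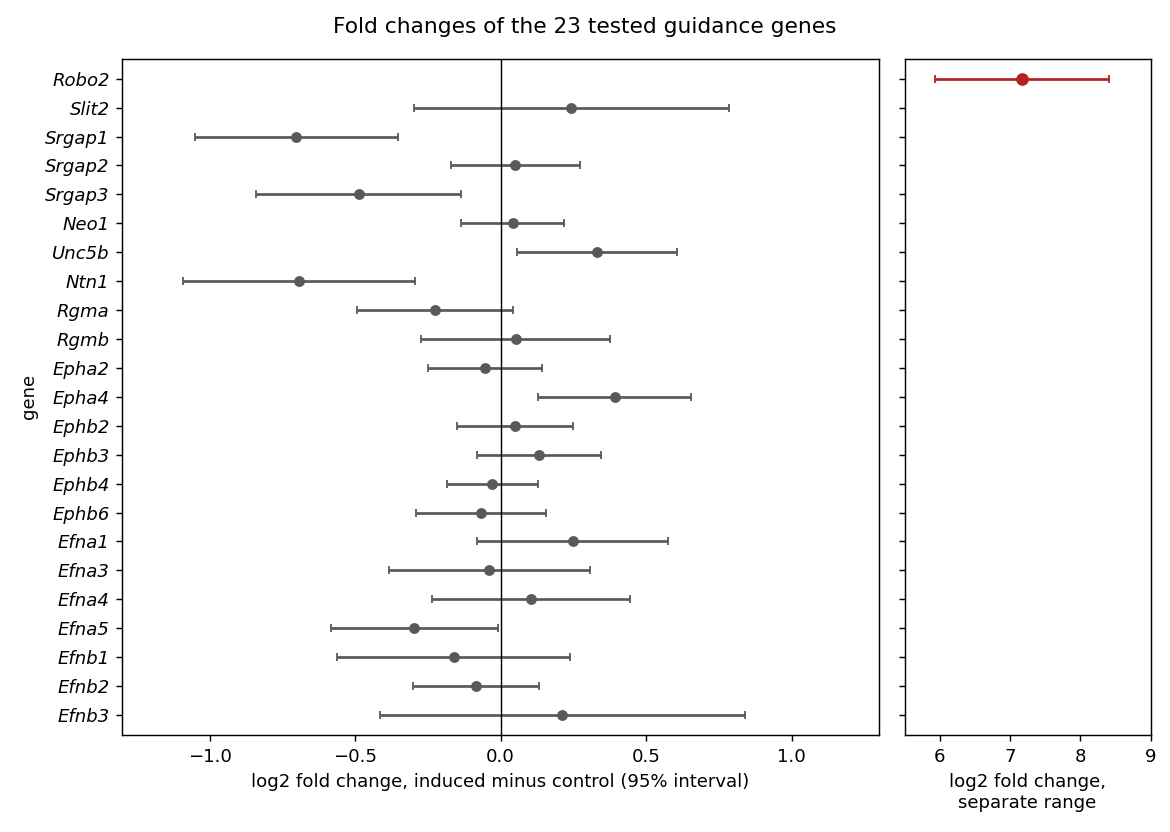
Log2 fold change (induced minus control) with its 95% interval from limma for the 23 tested guidance genes, with Robo2 in a panel of its own range. The interval of Robo2 runs from 5.94 to 8.40 and depends on the pseudocount of 1, since both controls hold 0 reads. The intervals of Srgap1, Srgap3, Ntn1, Efna5, Unc5b and Epha4 leave out 0 before adjustment.

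Levels were compared between genes per kb of merged exons, taken from GENCODE M21. Ephb4 and Neo1 led in both groups, with 907 and 832 normalized reads per kb in induced cells and 925 and 808 in control cells. Unc5b had 478 per kb in induced and 382 in control cells, Efna1 464 and 392, Srgap2 376 and 365, and Ephb3 331 and 302. Slit2, with long merged exons of 25.4 kb, had 163 per kb in induced cells and 138 in controls. Robo2 reached 8.47 per kb in induced cells, place 23 of the 32 genes and far below the ligand Slit2 on this scale. In control cells it held no read, and Robo3 stood at 1.83 per kb, against 5.41 in induced cells.

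**Figure D5:**
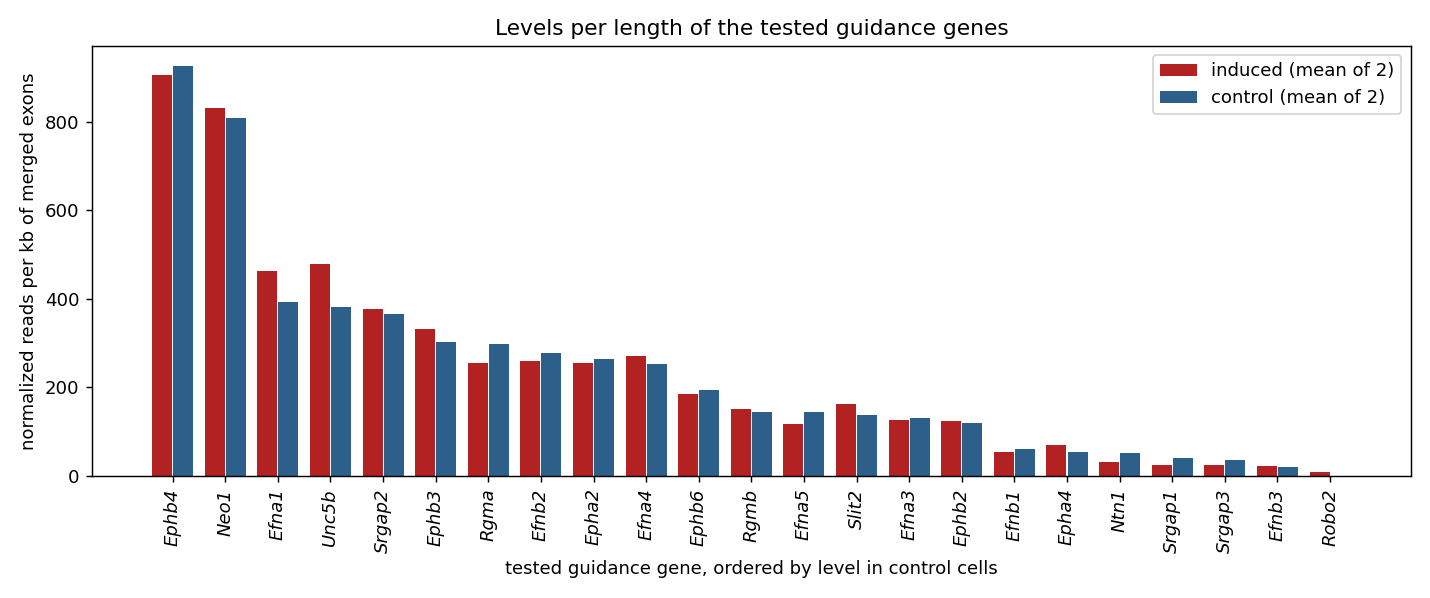
Mean normalized reads per kb of merged exons for the 23 tested guidance genes in induced and control cells, ordered by the level in controls. Ephb4 and Neo1 are highest in both groups, and Robo2, at 8.47 per kb in induced cells, is at the far right.

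Each of 3 lists of binding partners and effectors held 1 called gene, against the 3.42% of all tested genes called in either direction. Of 22 tested Slit-Robo partners 1 rose and 0 fell, with a median log2 fold change of 0.07, against the 2.08% of all tested genes that rose. The 1 was Sdc1, a heparan sulfate proteoglycan of a family that presents Slits, with 5826 and 6059 normalized reads in induced cells and 3417 and 3598 in control cells. The difference on the log2 scale was 0.76 (SE 0.06, adjusted p = 0.00799), and the call ended when the variance prior had no trend (adjusted p = 0.0573). Dag1, the Slit-binding dystroglycan, and Rac1, a regulator of the actin cytoskeleton, were the most abundant others, and did not pass (log2 fold change -0.22 and adjusted p = 0.176 for Dag1, 0.04 and 0.749 for Rac1).

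Of 25 tested Eph-ephrin partners 1 rose and 0 fell, with a median of 0.09, against the same 2.08% of all tested genes that rose. Crk, an adaptor that couples phosphotyrosine receptors to small GTPases, had 7880 and 7865 normalized reads in induced cells and 2089 and 1992 in controls. The log2 fold change was 1.95 (SE 0.06, adjusted p = 0.000423). Rock2 and Sdcbp, a protein kinase and the ephrin-B-binding syntenin, did not pass (log2 fold change 0.03 and adjusted p = 0.853 for Rock2, 0.10 and 0.532 for Sdcbp). Of 20 tested netrin and neogenin partners 0 rose and 1 fell, with a median of -0.02, against the 1.34% of all tested genes that fell. Flrt2, a transmembrane protein that binds Unc5 receptors, had 199 and 115 normalized reads in induced cells and 519 and 462 in control cells (log2 fold change -1.69, SE 0.27, adjusted p = 0.0353). The call ended without control replicate 1 or 2 (adjusted p = 0.110 and 0.0810), without the filter (0.0790) and with no trend (0.119). Maged1, a Unc5-binding protein, and Mgea5, which removes O-GlcNAc from proteins, did not pass (log2 fold change 0.08 and adjusted p = 0.546 for Maged1, -0.09 and 0.538 for Mgea5). No netrin-G gene or netrin-G ligand was tested.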

How the data were processed

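The authors deposited log2 values for 24689 mouse genes in 4 columns, matched to samples by description. The submitters' processing notes name HISAT, Cufflinks and build mm9, while the sources used here do not give the counting tool or the scaling. From the values, 2 to the power of each value minus 1 was a whole multiple of 1 step per library (100% within 0.01 reads), so the deposited log2 values are log2(normalized reads + 1) and reads could be recovered.

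The 13276 genes averaging at least 1 CPM (reads scaled to a fixed library total) were tested with limma 3.58.1 (R 4.3.3), a trend in the variance prior, no covariate and Benjamini-Hochberg adjustment over all of them, two-sided, with a threshold of 0.05. The design had named this test for log2 values. The SE and 95% intervals come from the same fit. The procedure was also run on simulated data with the same spread for every gene and no change as large as that of Robo2. That run does not show how the test treats such a gene. The fold of a gene with no control read is a bound against 3 reads per library. Bounds and intervals on reads cover counting error only. The 2 libraries of each group were distinct, with a chi-square statistic of 12.9 per gene in induced and 16.9 in control cells.

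Every guidance gene is named. From each partner list, up to 4 called genes and the 2 most abundant others are named. The members, lists and markers were chosen with earlier results of these data known. Alternatives were 2 other filters, a pseudocount of 10, 2 other scalings, limma voom on recovered reads, no trend, a replicate block and the omission of each library. Promoter windows and motifs were read from RefSeq (GRCm38.p6), and exon lengths, overlaps and distances from GENCODE M21 (GRCm38), neither of which is the authors' build.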

Additional observations from a re-analysis of the deposited data

How the results depend on the processing

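Robo2 was called higher under every alternative in which it was tested. Most of these fits kept the minimum of 1 CPM, which Robo2 passed through the induced libraries alone, with 0 reads in both controls. The repeated calls are therefore no separate support for a difference. Its log2 fold change was 3.94 with a pseudocount of 10 and 7.01 to 7.33 without a single library. It was not tested with the minimum of 5 CPM, which it misses, so the count of guidance genes called higher was 0 there. No guidance gene was called lower under any alternative. Of 274 pairs of a guidance gene and an alternative, 261 kept direction and side of the threshold and 13 changed sign, in 9 genes short of the threshold. Ephb4 moved to 0.0068 with scaling to the upper quartile. The other sign changes came from leaving out 1 library, with ranges of -0.13 to 0.0507 for Efna3, -0.0379 to 0.25 for Efna4, -0.18 to 0.0081 for Efnb2, -0.0023 to 0.10 for Ephb2, -0.0646 to 0.0072 for Ephb4, -0.0345 to 0.12 for Neo1, -0.0835 to 0.19 for Rgmb, -0.0174 to 0.50 for Slit2 and -0.0648 to 0.17 for Srgap2. Over all genes, 276 were higher and 178 lower in the reported fit, 100 and 59 without a filter, 64 and 52 with no trend and 157 and 104 with the replicate block. Leaving out 1 library gave 113 to 204 higher and 78 to 136 lower, with fewer residual degrees of freedom. The partner lists had 2 genes higher and 1 lower, 0 lower without a filter, 1 higher with no trend, and 3 to 5 higher and 0 to 1 lower without 1 library. With no trend 1 gene was still lower, but it was Arhgef15 (adjusted p = 0.0492), since Flrt2 lost its call. Crk and Sdc1 kept their calls in each of the fits that left out 1 library, and the added genes differed with the library left out. The cause was not tested. Libraries of equal replicate number showed no shared deviation (correlation of deviations -0.0884 over 13302 genes), which cannot tell whether they were paired in the experiment. With the block Robo2 had an adjusted p of 0.0113. The 9 untested genes fell short of 1 CPM, and their few reads limit what can be said of them.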
